A study of Mus musculus with 3 samples.

Results

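The genes described here are those of the proteins of the cytosolic ribosome, read by array in CT26, a mouse colon carcinoma line, with the miR-17~92 microRNA cluster or a control vector. A gene was taken when a probe set was annotated to that gene alone and its symbol was Rpl, Rps or Rplp with a number, or Rpsa, with Rps6 kinase genes, Rps19bp1 and symbols with the pseudogene ending -ps left out. This gave 62 of 19938 genes, read by 218 of 35556 probe sets. Of the 62, 21 encode proteins of the small subunit, 30 of the large subunit and 3 of its stalk, and 8 are paralogues or like genes (Rpl10l, Rpl32l, Rpl39l, Rpl3l, Rpl7l1, Rps23rg1, Rps27l and Rps4l). RefSeq lists Rps4l as a transcribed pseudogene and the other 61 as protein-coding. Of 77 ribosomal protein symbols listed for the mouse, 54 had a probe set of their own. The other 23 are not analysed here as genes, and 16 of them stood only on probe sets annotated to several genes.

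CT26 is a cultured line, kept here in serum-containing medium. Cells were stably transfected with a puromycin-resistance and GFP vector with a control microRNA (the group miR-Ctrl, here Ctrl) or with the cluster, at levels labelled medium (group miR-17~92Med, here Med) and high (group miR-17~92Hi, here Hi), and were then taken through puromycin selection, a GFP sort and cloning by serial dilution. The design text speaks of 3 subclones per group, but the table holds 1 column of log2 values per group, which leaves every difference without a measured error, and none was tested. Higher and lower describe these 3 columns alone, and clone, vector integration and cluster level cannot be told apart in them. The column medians over all probe sets were 6.95 (Ctrl), 6.65 (Med) and 6.66 (Hi). Of 10 epithelial genes, 5 (Ctrl), 4 (Med) and 4 (Hi) were above these medians. Epcam, at 6.15 (Ctrl), 5.14 (Med) and 5.14 (Hi), Cdh1, Krt20, Vil1 and Cdx2 were below them in every column, and Krt8, Krt19 and Krt18, the last at 7.97 (Ctrl), 11.41 (Med) and 12.28 (Hi), were above them. Of 5 mesenchymal genes 4 were above in each column, Vim at 11.94 (Ctrl), 13.89 (Med) and 13.63 (Hi), while Zeb1 was below. Of 9 leukocyte genes, 2 (Ctrl), 0 (Med) and 1 (Hi) were above, those being Cd3e and Cd8a (Ctrl) and Cd3e (Hi). Of 6 fibroblast genes, 4 (Ctrl), 3 (Med) and 3 (Hi) were above, with Pdgfra at 7.26 (Ctrl), 9.79 (Med) and 10.27 (Hi). Of 5 endothelial genes, 2 (Ctrl), 0 (Med) and 0 (Hi) were above, and the red cell gene Alas2 was above in Ctrl only.

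A ribosome needs each of its proteins in near equal numbers, and the genes for them are scattered over the chromosomes. Most of their mRNAs begin with a C followed by a run of pyrimidines, the 5′ terminal oligopyrimidine (TOP) motif, through which mTOR signalling and the RNA-binding protein Larp1 set their translation. Their transcription is high in growing cells, and Myc is among the factors known to raise it. Small nucleolar RNAs, which guide the modification of ribosomal RNA, lie in the introns of many of these genes.

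Sequence around the start of transcription is shown for 8 of these genes, because a pyrimidine run at the start of the mRNA is the feature these genes are known for. The sequences are from RefSeq (mouse build GRCm38.p6), 60 bases before the annotated start and 15 from it, on the strand of the gene, with the longest run of C and T that opens with C in capitals. Rps6, Rpl4, Rps25 and Rpl28 were higher in Hi than in Ctrl by 2-fold or more, and Rps18 was higher by 0.79, under 2-fold. Rpl7a differed little, and Rpl24 and Rpl10l were lower in Hi. The genes shown were picked with their values known. Over all the genes with a promoter sequence, those with long and with short runs had like medians, as given further below.
Rps6: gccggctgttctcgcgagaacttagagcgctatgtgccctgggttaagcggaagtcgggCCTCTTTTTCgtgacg
Rpl4: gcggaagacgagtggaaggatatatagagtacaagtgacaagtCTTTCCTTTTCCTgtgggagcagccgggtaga
Rps25: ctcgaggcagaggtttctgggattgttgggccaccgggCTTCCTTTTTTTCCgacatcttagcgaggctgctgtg
Rps18: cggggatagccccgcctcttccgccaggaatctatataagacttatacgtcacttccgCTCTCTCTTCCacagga
Rpl28: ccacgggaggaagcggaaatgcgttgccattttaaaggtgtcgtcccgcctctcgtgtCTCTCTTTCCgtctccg
Rpl7a: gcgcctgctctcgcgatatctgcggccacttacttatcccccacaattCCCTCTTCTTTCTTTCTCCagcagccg
Rpl24: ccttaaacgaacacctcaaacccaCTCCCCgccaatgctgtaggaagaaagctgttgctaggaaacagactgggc
Rpl10l: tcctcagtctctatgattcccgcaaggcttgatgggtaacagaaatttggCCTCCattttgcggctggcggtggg
The window of Rps6 is at chr4:86857353-86857427 on the minus strand, that of Rpl4 at chr9:64173327-64173401 on the plus strand and that of Rps25 at chr9:44407654-44407728 on the plus strand. That of Rps18 is at chr17:33955651-33955725 on the minus strand and that of Rpl28 at chr7:4792905-4792979 on the plus strand. That of Rpl7a is at chr2:26910747-26910821 on the plus strand, that of Rpl24 at chr16:55966215-55966289 on the plus strand and that of Rpl10l at chr12:66284387-66284461 on the minus strand.

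The run was 10 bases long in Rps6 and began 1 base before the annotated start. It was 13 bases in Rpl4, 14 in Rps25, 11 in Rps18, 10 in Rpl28 and 19 in Rpl7a, against 6 in Rpl24 and 5 in Rpl10l. Counted from the annotated start, its first base was at -2 in Rps18 and Rpl28 and at -12 in Rpl7a. It was at -17 in Rpl4, -22 in Rps25, -36 in Rpl24 and -10 in Rpl10l. In these last genes the run ended before the annotated start, so it is not part of the annotated mRNA. RefSeq's table held promoters of 50 of the 62 genes. A run of 8 or more bases within 40 bases on either side of a start was found in 33 of the 50 (66.0%), in 29.4% of mitochondrial ribosomal protein genes and in 26.1% of all 27025 genes of the table. On the opposite strand of the same windows the shares were 18% of the ribosomal protein genes and 29.2% of all genes. The motif CCGGAAG, read on either strand over 250 bases before and 50 after the start, was found in 38.0% of the ribosomal protein genes, 36.8% of the mitochondrial ones and 9.93% of all genes. The motif AAGATGG was found in 10.0% of the ribosomal protein genes, 19.1% of the mitochondrial ones and 7.28% of all genes, so this one was not more frequent in the cytosolic set than in the mitochondrial. On the other strand CCGGAAG reads CTTCCGG, so a match there can be part of a pyrimidine run, and CCGGAAG and AAGATGG can share the letters AAG. A match describes these letters and is not a measured binding or initiation site.

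The first comparison, of high with medium levels of the cluster, asks what the step between the labelled levels changes. Differences were small, and on the deposited scale nearly all of those over 0.01 lay on the lower side. None of the 62 genes was 2-fold apart between Hi and Med, in a table where 0.406% of all genes were 2-fold higher and 0.512% 2-fold lower in Hi. By more than 0.01 on the log2 scale, 43 of the 62 (69.4%) were lower in Hi and 2 were higher, and 17 were level within 0.01. Among all genes 22.5% were lower by that margin, 24.1% were higher and 53.4% were level. Level genes such as Rps3, Rps4x and Rpl19 had a difference of 0.0000. How the deposited values came to hold such ties is not stated, so level is not a measured lack of change. Lower by 0.1 or more were 26 of the 62 (41.9%), against 13.8% of all genes, and higher by 0.1 or more was 1, against 12.7%. The split by 0.01 was 32 lower and 20 higher after quantile normalization and 40 lower and 20 higher after cyclic loess. Among all genes the shares were then 35.0% lower and 43.3% higher after quantile normalization, and 49.6% and 34.3% after cyclic loess. By 0.1 the split was 20 and 1 after quantile normalization, where 12.4% and 12.5% of all genes were. After cyclic loess it was 25 and 7, where 15.9% and 13.1% of all genes were. The median difference was -0.05, against 0.00 over all genes. In these bulk values, fewer cells of a type and less RNA per cell cannot be told apart.

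Among genes with a high value in Med, the share lower in Hi was larger. Of the 134 other genes at 12 or more in Med, 54.5% were lower in Hi by more than 0.01 and 33.6% by 0.1 or more. Of the 28 ribosomal protein genes at 12 or more in Med, 25 (89.3%) were lower, 14 (50%) by 0.1 or more, and 0 were higher. Among other genes of that level 26.9% were higher. The part of signal level in the result was not tested further.

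**Figure D1:**
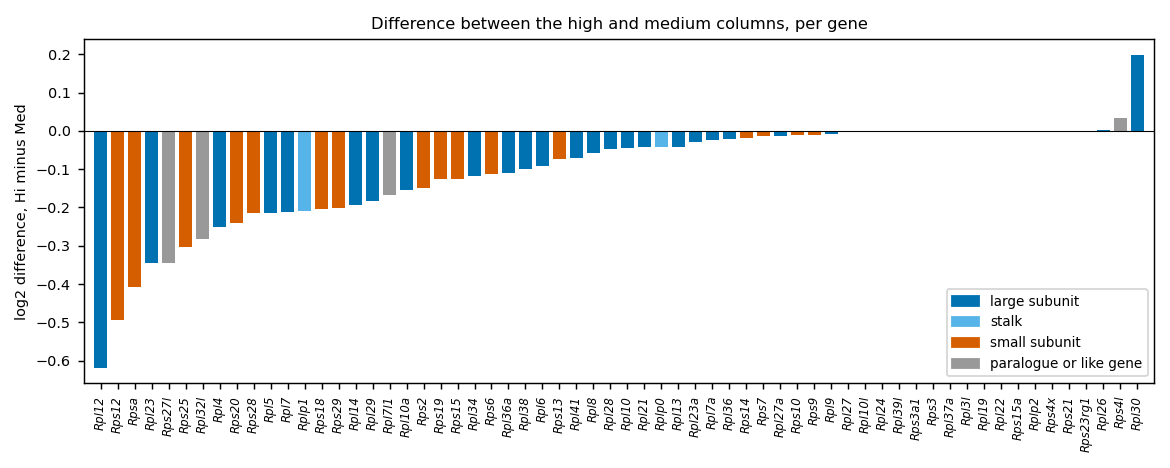
Hi minus Med difference of the deposited log2 value (y axis) for each of the 62 genes (x axis, ordered by the difference), coloured by the part of the ribosome the protein belongs to. Bars below 0 are lower in Hi. Rpl12 is at the low end with -0.62 and Rpl30 at the high end with 0.20.

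Among small subunit genes, 16 of 21 were lower in Hi than Med by over 0.01 and 0 were higher, with a median of -0.11. Rps12, a protein of the beak of the small subunit, was at 8.31 (Ctrl), 11.64 (Med) and 11.15 (Hi), a Hi minus Med difference of -0.49. Its 14 probe sets, 8 of them with distinct values, all lay between -0.50 and -0.47. Rpsa, which also serves as a laminin receptor, was at 9.73 (Ctrl), 11.31 (Med) and 10.90 (Hi), a Hi minus Med difference of -0.41, and its 5 probe sets ran from -0.54 to -0.16. Rps25, needed for initiation on some viral internal entry sites, was at 9.19 (Ctrl), 12.28 (Med) and 11.98 (Hi), a difference of -0.30, with 6 probe sets between -0.35 and -0.25. These 3 genes were thus lower in Hi on every probe set that reads them. Rps20 followed, at 10.39 (Ctrl), 13.11 (Med) and 12.87 (Hi). The 5 small subunit genes level within 0.01 were Rps3, Rps3a1, Rps4x, Rps15a and Rps21, each with a tie between Hi and Med (0.0000).

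Of the 33 genes of the large subunit and stalk, 24 were lower in Hi than Med by over 0.01 and 1 was higher, with a median of -0.04. Rpl12, a protein at the base of the stalk, had the largest difference of all 62, at 7.76 (Ctrl), 9.38 (Med) and 8.76 (Hi), a Hi minus Med difference of -0.62. It has 1 probe set. Rpl23 was at 9.68 (Ctrl), 11.14 (Med) and 10.80 (Hi), a Hi minus Med difference of -0.34, but its 2 probe sets stood at -0.60 and -0.09. Rpl4, whose long loop lines the exit tunnel of the nascent chain, was at 8.28 (Ctrl), 12.43 (Med) and 12.18 (Hi), a Hi minus Med difference of -0.25. Rpl30, whose yeast counterpart binds its own transcript, was the only one higher in Hi by 0.1 or more on the deposited scale, at 8.61 (Ctrl), 8.93 (Med) and 9.13 (Hi), a Hi minus Med difference of 0.20. Its value likewise rests on 1 probe set. Rpl26, the next large subunit gene, was level (0.0030).

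The stalk genes Rplp0, Rplp1 and Rplp2 encode the acidic proteins that recruit elongation factors. Rplp1 was at 12.36 (Ctrl), 13.07 (Med) and 12.86 (Hi), and Rplp0 at 10.28 (Ctrl), 12.87 (Med) and 12.83 (Hi). Thus Rplp1 was lower in Hi than in Med by 0.21 and Rplp0 by 0.04. Rplp2 was at 7.27 in every column, on 1 probe set. That value was near the middle of all genes, at percentiles of 50.6 (Ctrl), 54.4 (Med) and 54.5 (Hi). Whether this probe set reads Rplp2 was not tested, so its equal values are not taken as a lack of change. Of the like genes, Rps27l, a p53-responsive paralogue of Rps27, was at 7.15 (Ctrl), 11.07 (Med) and 10.72 (Hi), a Hi minus Med difference of -0.34. Rpl32l was at 5.69 (Ctrl), 8.22 (Med) and 7.94 (Hi), a Hi minus Med difference of -0.28. Rps4l, a like gene of the X-linked Rps4x, was at 8.07 (Ctrl), 6.67 (Med) and 6.71 (Hi), higher in Hi than in Med by 0.03, with 2 probe sets at opposite signs (-0.05 and 0.11).

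The Hi minus Med differences differed between chromosomes. All 7 of the genes on chromosome 9 were lower in Hi by 0.1 or more, as were 46.0% of the 543 other genes of that chromosome past the level filter (a mean of 7.13 or more over the columns). They were Rpsa, Rps27l, Rps25, Rpl4, Rplp1, Rpl14 and Rpl29, between -0.41 and -0.18, and the other genes of chromosome 9 averaged -0.20. All 7 were also below 0 after centring, quantile normalization and cyclic loess, Rpl29 nearest to it (-0.09 after cyclic loess). On chromosome 10 all 4 genes were lower by more than 0.01 (Rps12, Rpl32l, Rps15 and Rpl41, with a mean of -0.24). By 0.1 or more 3 of them were lower, as were 39.7% of the 486 other genes, which averaged -0.14. Rpl41 was at 0.08 after cyclic loess. On chromosome 17, 5 of 8 were lower by 0.1 or more, as were 35.6% of the 495 other genes, which averaged -0.11. Chromosome 15 ran the other way, with its 413 other genes averaging 0.14 and 45.0% of them higher in Hi by 0.1 or more. Rpl30, the gene highest in Hi relative to Med, lies there. So does Rpl8, which was lower in Hi by 0.06.

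On 5 chromosomes (6, 9, 10, 17 and 18), 30% or more of the other genes past the filter were lower in Hi than in Med by 0.1 or more, a division made after the values were seen. They hold 21 of the 62 genes, of which 15 (71.4%) were lower by 0.1 or more, with a median of -0.18. The share among their other genes past the filter ran from 31.1% (chromosome 18) to 46.0% (chromosome 9). On the remaining chromosomes 11 of 41 (26.8%) of the ribosomal protein genes were lower by 0.1 or more, with a median of -0.02. There the share among other genes ran from 4.6% (chromosome 15) to 24.6% (chromosome 1). Chromosome 7, with 8 of the genes, had 1 lower by 0.1 or more (Rps19, -0.13), and 10.2% of its 715 other genes were. Not all genes lay near the mean of their chromosome. Rpl12 on chromosome 2 was at -0.62, Rpl23 on chromosome 11 at -0.34, Rps20 on chromosome 4 at -0.24, Rpl5 on chromosome 5 and Rpl7 on chromosome 1 each at -0.21 and Rps29 on chromosome 12 at -0.20, where the other genes averaged between -0.04 and 0.01. On the lower chromosomes, Rps4l on chromosome 6 was at 0.03 and Rps14 on chromosome 18 at -0.02, where the other genes averaged -0.12 and -0.11. The part of chromosome position in the difference was not tested.

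**Figure D2:**
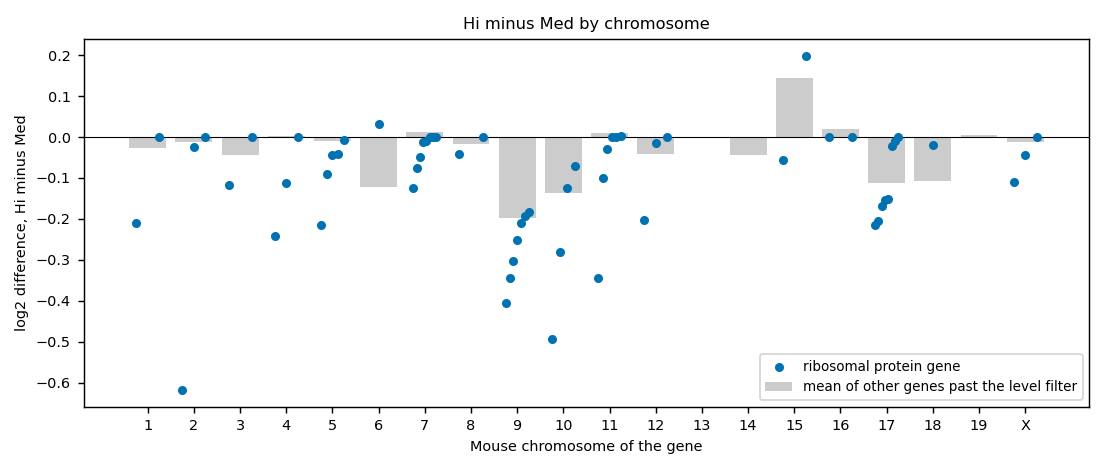
Hi minus Med difference of the log2 value (y axis) by mouse chromosome (x axis). Points are the 62 ribosomal protein genes and grey bars the mean of all other genes of the chromosome past the level filter. The 7 points of chromosome 9 all lie between -0.41 and -0.18, around a bar of -0.20, and the bar of chromosome 15 is at 0.14.

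The next comparison, of high levels with the control vector, was much larger. In Hi, 38 of the 62 genes were higher than in Ctrl by 2-fold or more and 4 were lower by as much, where 17.5% of all genes were 2-fold higher and 15.4% 2-fold lower. The median difference was 1.53, against -0.19 over all genes. The split depended on the scaling between columns. It was 25 higher and 9 lower after quantile normalization, which moved the median of all genes by -0.10. Of all genes 13.6% were then 2-fold higher and 14.7% 2-fold lower. After cyclic loess, which moved that median by 0.13, the split was 26 higher and 7 lower, where 14.6% and 5.9% of all genes were. With columns centred on their medians (a shift of 0.29) the counts were 40 and 2, where 21.3% and 6.0% of all genes were. Med against Ctrl gave 39 genes 2-fold higher and 4 lower, where 18.3% and 16.3% of all genes were, with a median of 1.60. That split was 28 and 9 after quantile normalization, where 13.9% and 15.5% of all genes were. After cyclic loess it was 29 and 7, where 15.8% and 6.7% of all genes were. Both comparisons use the same Ctrl column, so they are not independent. Other genes of high level had as large a difference. Of the 134 other genes at 12 or more in Med, 116 were 2-fold higher in Hi than in Ctrl, with a median of 3.12. Of the 28 ribosomal protein genes at that level 22 were, with a median of 2.62. Choosing genes by a high value in Med favours genes that are higher there than in Ctrl.

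**Figure D3:**
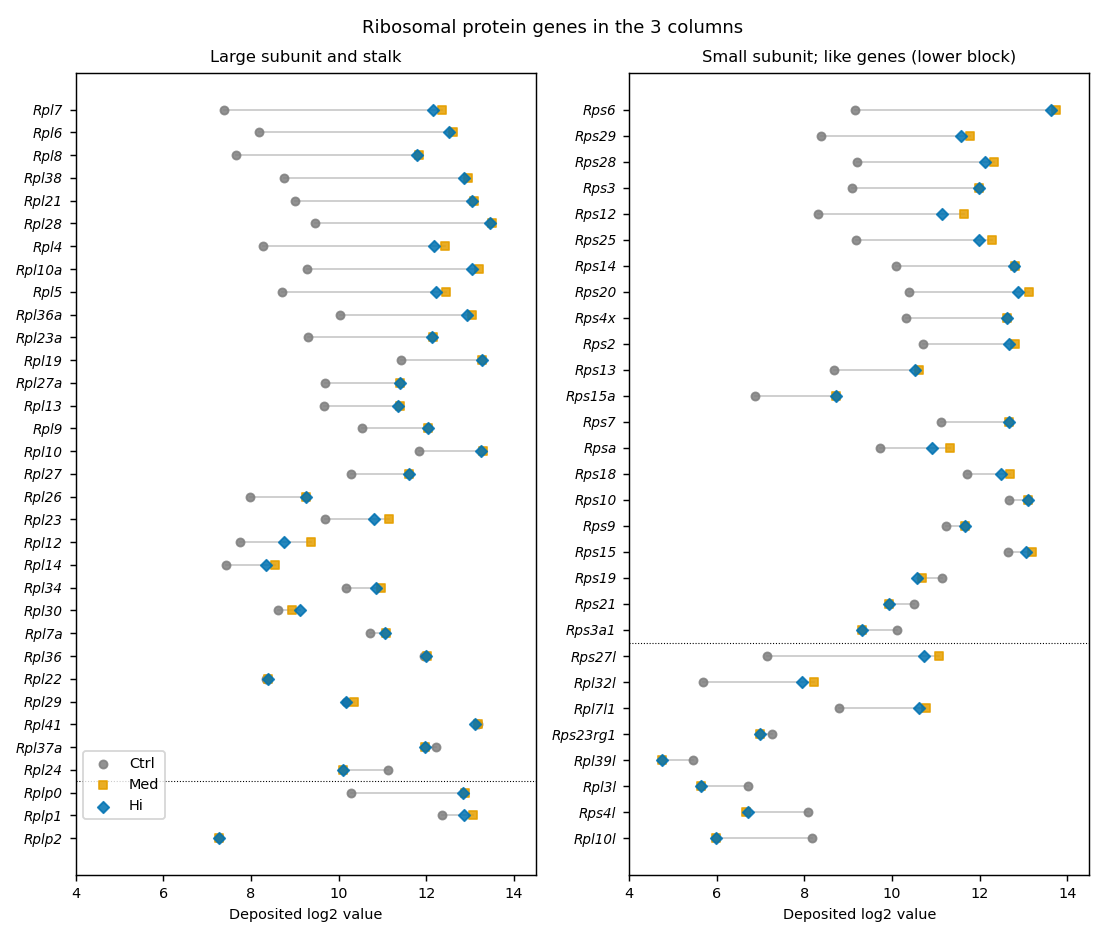
Deposited log2 value (x axis) of each of the 62 genes in Ctrl (grey circles), Med (orange squares) and Hi (blue diamonds), with large subunit and stalk genes on the left and small subunit and like genes on the right, each ordered by Hi minus Ctrl. Grey lines join the lowest and highest value. Med and Hi lie within 0.62 of each other in every row, and Ctrl is far lower in the upper rows and level or higher in the lowest ones.

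In the small subunit 14 of 21 genes were 2-fold higher in Hi than in Ctrl and 0 were 2-fold lower. Rps6, the protein phosphorylated by the S6 kinases, was at 9.15 (Ctrl), 13.74 (Med) and 13.63 (Hi), a Hi minus Ctrl difference of 4.47. Its 8 probe sets ran from 2.79 to 6.33. Rps19, which is mutated in human Diamond-Blackfan anaemia, was at 11.14 (Ctrl), 10.68 (Med) and 10.56 (Hi), and so was lower in Hi by 0.58 without reaching 2-fold. Rps3a1, a protein of the platform of the subunit, was at 10.11 in Ctrl and 9.31 in both Med and Hi (-0.80). Rps10 was at 12.66 (Ctrl), 13.10 (Med) and 13.09 (Hi), and Rps15 at 12.65 (Ctrl), 13.18 (Med) and 13.06 (Hi), so both were high in every column and differed by less than 2-fold.

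In the large subunit with its stalk, 21 of 33 genes were 2-fold higher in Hi than in Ctrl and 1 was 2-fold lower. Rpl7 was at 7.38 (Ctrl), 12.37 (Med) and 12.16 (Hi), the largest Hi minus Ctrl difference of the 62 at 4.77, with 4 probe sets between 4.70 and 4.88. Rpl6 was at 8.18 (Ctrl), 12.60 (Med) and 12.51 (Hi), a Hi minus Ctrl difference of 4.33. Rpl8, a protein close to the peptidyl transferase centre, was at 7.66 (Ctrl), 11.84 (Med) and 11.78 (Hi), a Hi minus Ctrl difference of 4.12. Rpl38, which in mice is needed for the translation of a set of Hox mRNAs, was at 8.75 (Ctrl), 12.96 (Med) and 12.86 (Hi), a Hi minus Ctrl difference of 4.11. Each of these was thus over 4 on the log2 scale above Ctrl in Hi. Rpl5, which with Rpl11 and 5S RNA binds Mdm2 when ribosome assembly is disturbed, was at 8.71 (Ctrl), 12.44 (Med) and 12.23 (Hi), a Hi minus Ctrl difference of 3.52. Rpl11 had no probe set of its own. Rpl10, which in yeast joins late and lets the export adaptor Nmd3 leave, was at 11.83 (Ctrl), 13.29 (Med) and 13.25 (Hi), a Hi minus Ctrl difference of 1.42. It was under 2-fold after quantile normalization (0.29) and cyclic loess (0.57).

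Rpl24 was the only large subunit gene 2-fold lower in Hi, at 11.13 in Ctrl and 10.10 in Med and Hi, and its 3 probe sets ran from -1.17 to -0.85. Its difference was -0.74 after centring, under 2-fold, and -2.20 after quantile normalization and -1.85 after cyclic loess. Rpl41, which encodes a very short basic protein, was at 13.18 (Ctrl), 13.18 (Med) and 13.11 (Hi). Rpl29 was at 10.17 (Ctrl), 10.35 (Med) and 10.17 (Hi), and Rpl22, an RNA-binding protein needed for T cell development in mice, at 8.35 (Ctrl), 8.38 (Med) and 8.38 (Hi). These 3 genes were within 0.1 of Ctrl in Hi.

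Of the 8 like genes 3 were 2-fold higher in Hi than in Ctrl and 3 were 2-fold lower. Rps27l (3.58), Rpl32l (2.25) and Rpl7l1 (1.83) were higher. Rpl7l1 was under 2-fold after quantile normalization (0.93) and cyclic loess (0.97). Rpl10l, an autosomal retrogene used in male meiosis, was at 8.17 in Ctrl and 5.99 in Med and Hi (-2.18), while its parent Rpl10 was higher in Hi by 1.42 on the deposited scale. Rpl3l, the muscle form of Rpl3, was at 6.70 in Ctrl and 5.64 in Med and Hi (-1.06), and under 2-fold after centring (-0.77), quantile normalization (-0.74) and cyclic loess (-0.46). Rps4l was lower by 1.37 while Rps4x was higher by 2.29 in Hi. Rpl39l, a male germ cell form of Rpl39, was at 5.45 in Ctrl and 4.74 in Med and Hi, and Rps23rg1 was at 7.25 in Ctrl and lower than that by 0.25 in Med and Hi. Of the like genes, Rpl10l, Rpl39l, Rpl3l and Rps23rg1 did not pass the level filter. The other 58 of the 62 genes did, and among genes past it 33.5% were 2-fold higher in Hi than in Ctrl and 8.4% 2-fold lower.

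Values at the top of the scale were more common in the cluster columns. At 12 or more were 5 of the 62 genes in Ctrl, 28 in Med and 26 in Hi, among 30, 162 and 162 of all genes. The SD of the log2 values over the 62 genes was 1.73 (Ctrl), 2.16 (Med) and 2.14 (Hi). Without the 8 like genes it was 1.53 (Ctrl), 1.54 (Med) and 1.54 (Hi), and over all genes it was 1.97 in Hi against 1.45 in Ctrl. Med was the highest of the 3 columns in 41 genes and lay between Ctrl and Hi in 2. These counts were not made over all genes and largely restate the comparisons above, so they are not read as a trait of this set. The genes with the highest mean over the columns were Rpl41, Rps15, Rps10, Rpl10 and Rplp1, and those with the lowest were Rpl39l, Rpl3l, Rpl10l, Rps23rg1 and Rps4l. Array values of different genes are not per length, so these orders give no order of mRNA number.

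Genes with and without a promoter run had like medians. Of the 33 genes with a run of 8 or more, 19 were 2-fold higher in Hi than in Ctrl, with a median of 1.52. Of the 17 with a promoter entry and no such run, 12 were, with a median of 1.42. Rpl7a, whose 19-base run is shown above, was at 10.72 (Ctrl), 11.09 (Med) and 11.06 (Hi), a Hi minus Ctrl difference of 0.35, and Rpl6 had no run of that length. In Hi against Med, 21 of the 33 and 12 of the 17 were lower by more than 0.01.

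Probe sets of the same gene disagreed mainly in Ctrl. For the 39 genes with several probe sets (up to 14), the median range between them was 1.26 (Ctrl), 0.68 (Med) and 0.78 (Hi). It was 1.03 (Ctrl), 0.86 (Med) and 0.85 (Hi) in 960 other genes with several. In the 149 of these at 10 or more in Med it was 0.83 (Ctrl), 0.46 (Med) and 0.44 (Hi), so they too were widest apart in Ctrl. Rps14 was read by 1 probe set at 6.33 (Ctrl), 12.50 (Med) and 12.46 (Hi) and by another at 13.86 (Ctrl), 13.09 (Med) and 13.09 (Hi). Its Hi minus Ctrl differences were 6.13 and -0.77, so the mean of 2.68 describes neither. Rpl5 had a probe set at 11.67 in Hi and 4.98 in Ctrl and another at 12.26 in Hi and 10.96 in Ctrl. Rps4x had 1 probe set at -0.10 in Hi minus Ctrl and the others between 1.70 and 3.43. Hi minus Ctrl had both signs among the probe sets of 6 of the 39 genes (Rpl36, Rpl7a, Rpl9, Rps14, Rps4x and Rps9). Processed copies of these genes are many in the mouse genome, and which transcripts a probe set reads beyond its annotated gene was not tested.

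In Hi against Med the probe sets of a gene lay much closer. Of the 39 genes, 38 had no probe set higher in Hi by more than 0.01 and 20 had every probe set lower, and the median range of the difference was 0.06. Of all 218 probe sets 148 were lower and 2 were higher, where 26.6% and 27.6% of all probe sets were. Some of the 218 carry the same values, and 205 rows are distinct. The 239 probe sets annotated to several genes that include a ribosomal protein symbol, none of them used above, were also more often lower than higher. In Hi against Med 145 were lower, 31 higher and 63 level (median -0.05). In Hi against Ctrl 184 of the 239 were 2-fold higher and 3 2-fold lower, with a median of 2.29. Of all 35556 probe sets 6899 were 2-fold higher and 5435 2-fold lower.

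**Figure D4:**
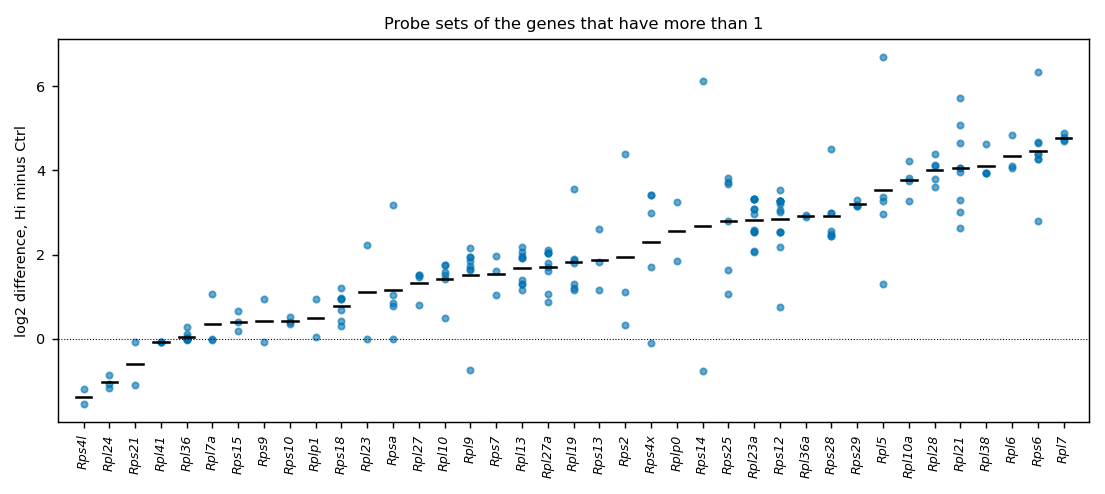
Hi minus Ctrl difference of the log2 value (y axis) for each probe set (points) of the 39 genes with more than 1 probe set (x axis, ordered by the mean difference). Black bars are the mean over a gene's probe sets, the value used for the gene. Rps14 spans -0.77 to 6.13, and the 4 probe sets of Rpl7 lie between 4.70 and 4.88.

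Other genes of protein synthesis were set beside these. The 77 mitochondrial ribosomal protein genes build the separate ribosome of mitochondria. In Hi against Ctrl 39 of them were 2-fold higher and 1 2-fold lower, with a median of 1.09. In Hi against Med 19 were lower, 16 higher and 42 level, with a median of 0.00. The mitochondrial set thus had nearly as many genes higher as lower, and its genes were at a median of 8.90 in Med, where the cytosolic ones were at 11.81.

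Of 24 translation factor and other TOP mRNA genes, 18 were 2-fold higher in Hi than in Ctrl and 1 (Eif4a2) was 2-fold lower, with a median of 2.15. In Hi against Med 11 were lower, 6 higher and 7 level. Npm1, a nucleolar chaperone, was at 6.98 (Ctrl), 12.31 (Med) and 11.96 (Hi). Tmem123 was at 6.95 (Ctrl), 10.33 (Med) and 9.50 (Hi), the furthest below Med in this list (-0.83). Eif3h, a subunit of initiation factor eIF3, was at 8.79 (Ctrl), 11.43 (Med) and 11.89 (Hi) and was the furthest above it (0.46). Fau, whose product includes a small subunit protein but whose symbol kept it out of the 62, was at 11.60 (Ctrl), 12.89 (Med) and 12.85 (Hi).

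Among 39 genes of ribosome assembly and export, 25 were 2-fold higher and 0 2-fold lower in Hi than in Ctrl, with a median of 1.25. In Hi against Med 13 were lower, 6 higher and 20 level, with Ltv1, a factor for small subunit export, lowest at -0.60 and Rrs1, a factor for 5S particle assembly, next at -0.47. Of 12 kinases and regulators of these genes, 4 were 2-fold higher and 1 (Mycn) was 2-fold lower in Hi than in Ctrl. Myc was at 8.48 (Ctrl), 12.21 (Med) and 12.06 (Hi), Mtor at 8.88 in every column and Larp1 at 9.02 (Ctrl), 9.72 (Med) and 9.70 (Hi). Of 5 genes of the response to disturbed ribosomes other than Rps27l, 3 were 2-fold higher in Hi than in Ctrl. Among these Mdm2, the ligase that Rpl5 binds, was at 6.76 (Ctrl), 9.02 (Med) and 8.45 (Hi). Of 12 housekeeping genes 8 were 2-fold higher and 0 2-fold lower in Hi than in Ctrl, with a median of 1.78, so housekeeping genes had a shift of like size.

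**Figure D5:**
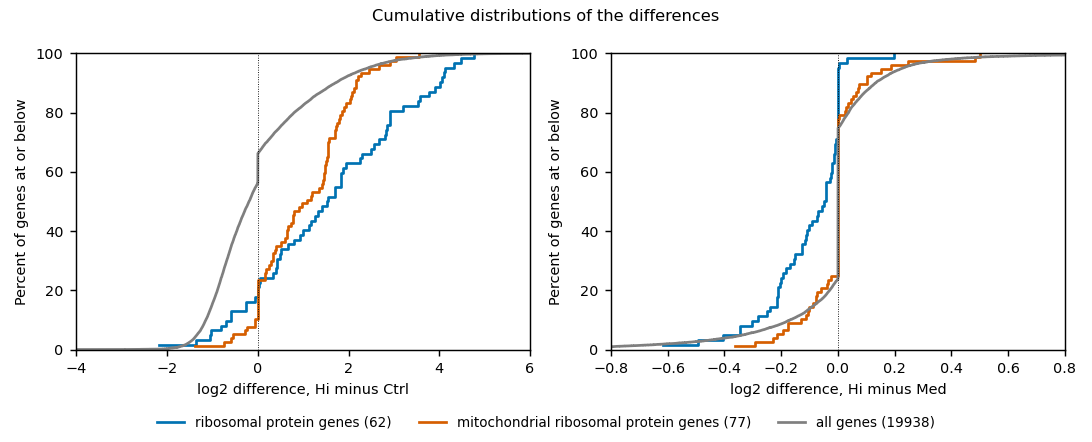
Cumulative percent of genes (y axis) at or below a log2 difference (x axis) for Hi minus Ctrl (left) and Hi minus Med (right), in ribosomal protein genes (62), mitochondrial ribosomal protein genes (77) and all genes (19938). On the left both ribosomal sets lie to the right of all genes, with medians of 1.53 and 1.09 against -0.19. On the right only the cytosolic set lies to the left, with a median of -0.05.

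RefSeq places 39 small nucleolar RNA genes inside 20 of the 62 genes, by coordinates alone and without regard to strand, and 12 of these RNAs, in 10 host genes, had a probe set of their own. In Hi against Ctrl 6 of the 12 were 2-fold higher and 0 2-fold lower. In Hi against Med 5 were higher, 0 lower and 7 level, while their hosts were lower or level. Of all 53 small nucleolar RNA genes with a probe set of their own, 30 were 2-fold higher in Hi than in Ctrl, and their median Hi minus Med difference was 0.05. Snora52, inside Rplp2, was at 7.97 (Ctrl), 12.72 (Med) and 12.91 (Hi), where the 1 probe set of Rplp2 was at 7.27 in all 3. Snora33, inside Rps12, was at 6.53 (Ctrl), 7.80 (Med) and 8.09 (Hi), higher in Hi than in Med by 0.30, where Rps12 was lower by 0.49. Snord15a, inside Rps3, was at 6.32 (Ctrl), 8.09 (Med) and 8.58 (Hi), and Snord15b, inside the same gene, was at 8.93 in every column. Snord42a, inside Rpl23a, was at 6.12 (Ctrl), 8.20 (Med) and 8.60 (Hi). Whether a probe set for such an RNA reads the processed RNA or the host's intron was not tested.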

How the data were processed

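Deposited array values, on a log2 scale as read from their range (2.13 to 14.8), were used as the authors left them. The tools in the submitters' processing notes are GCRMA and Affymetrix Expression Console, without role or version. No source used here states how subclones became 1 column per group. Per the labels' protocols, total RNA was amplified with random primers and biotin-labelled. Symbols came from GEO's platform annotation, matched by gene number to RefSeq (GRCm38.p6) for 62 of 62 genes. Probe sets of 1 gene were averaged.

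Genes 2-fold apart (log2 difference of 1 or more) or apart by over 0.01 or by 0.1 were counted, beside all 19938 genes. The level filter was the median gene's mean, 7.13. The text names the 5 highest and 5 lowest genes per comparison and by mean level (in Hi against Med only 3 lay above 0), like genes, stalk genes, Rpl5, Rpsa, Rps6, Rps19 and Rpl10, and up to 4 genes of each other list. Further genes named for chromosome, probe set disagreement, promoter or small nucleolar RNA were picked with their values known. The genes and lists were chosen with earlier results of these data known. With 1 column per group there is no test. The number of arrays limits the precision. All 3 columns were mapped to a group. The counting was checked on simulated data. Python 3.11.15, pandas 2.3.3, numpy 2.4.6, matplotlib 3.10.9, R 4.3.3 and limma 3.58.1 (cyclic loess) were used. Column scaling, the summary of probe sets, the level filter and the like genes were varied.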

Additional observations from a re-analysis of the deposited data

How the results depend on the processing

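Hi against Med kept 0 genes 2-fold apart under every alternative tried. Its median was -0.018 after quantile normalization, and genes higher by more than 0.01 numbered 20 there and 20 after cyclic loess, which also put 7 higher by 0.1 or more. With the highest probe set per gene 1 was higher, and 1 without like genes. In the 23 genes with 1 probe set only, 11 were lower, 1 higher and 10 lower by 0.1 or more, with a median of 0.00. Counting each probe set, chosen after seeing the data, gave 148 lower with a median of -0.069.

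The medians against Ctrl were 0.61 for Hi and 0.59 for Med after quantile normalization, 0.80 and 0.82 after cyclic loess, and 0.67 and 0.79 in genes with 1 probe set. Genes with 1 probe set held 10 genes 2-fold higher and 2 lower in Hi, and 11 and 2 in Med. Of all genes with 1 probe set, 16.9% were 2-fold higher and 15.9% lower in Hi, and 17.7% and 16.8% in Med. In Hi and Med alike, genes 2-fold lower numbered 9 after quantile normalization, 7 after cyclic loess, 2 with centred columns, 2 with the level filter and 1 without like genes. Genes 2-fold higher in Hi numbered 25 after quantile normalization. Genes at 12 or more in Ctrl numbered 11 after quantile normalization, 9 after cyclic loess and 10 with the highest probe set. With 1 probe set only they were 1 (Ctrl), 2 (Med) and 2 (Hi). With the highest probe set, Rps14 was at -0.77 and Rps4x at -0.10 against Ctrl, in Hi and in Med, opposite to their means. Of the 42 genes 2-fold apart between Hi and Ctrl, 14 fell under 2-fold after quantile normalization and 13 after cyclic loess. For these changes the cause was not tested. The setting with 1 probe set per gene holds 23 of the 62 genes. No paired analysis was possible because each group has 1 column and no replicate number.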
